A study of Mus musculus with 18 samples.

Results

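The tripartite motif (TRIM) genes are a family of ubiquitin ligase genes, and Trim21 is the member that was introduced into 1 of the 2 cell lines compared here. Members were taken by name, as every symbol of the count tables made of Trim, a number and at most 1 trailing letter. This gave 65 genes of 24062 symbols, of which 37 had enough reads to be tested. Besides Trim21 itself, 36 relatives were therefore available for the question whether any of them follows the raised Trim21.

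Most TRIM proteins have a RING domain that recruits ubiquitin-conjugating enzymes, 1 or more B-boxes and a coiled coil. They differ in the C-terminal domain that binds the target. TRIM21 is a cytosolic antibody receptor: its PRY-SPRY domain holds the Fc part of IgG, and the bound complex is ubiquitinated and sent to the proteasome. Many relatives with a PRY-SPRY domain are induced by interferon and act against viruses, while others silence chromatin, organise microtubules or work in muscle and germ cells.

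The RNA came from NIH3T3, a mouse embryonic fibroblast line, with a wild-type genotype (called the WT line here) and from NIH3T3-mCherry-mTRIM21, the same line carrying mouse TRIM21 joined to the fluorescent protein mCherry (the TRIM21 line). All cells of both lines were electroporated, with PBS, with bovine serum albumin (BSA) or with an antibody (IgG), 7.5 µg of protein being used where protein was given, and RNA was taken after 16 h. There were 6 groups, 1 for each treatment of each line, with 3 libraries apiece, numbered 10, 11 and 14 in the titles, which made 9 per line. Neither the promoter of the fusion nor whether the TRIM21 line is a clone or a pool is given in the sources used here, and nothing in the labels says that libraries of a group came from separate cultures, so p-values measure the spread between these libraries, which may be technical.

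Libraries held 19509017 to 29766433 gene counts. Levels are given as CPM, counts brought to a common library total and scaled by TMM factors of 0.9774 to 1.034, or as RPKM, the same value per kilobase of annotated exon. Within a library, 3 counts correspond to 0.0981 to 0.1523 CPM, taken here as an approximate 95% upper bound for an observed 0. All 7 fibroblast markers were expressed, summing to 2990 to 3850 RPKM in the WT line and 2270 to 3430 in the TRIM21 line. Of the 7, 1 had an adjusted p under 0.05 between the lines, beside 6.18% of all genes. This was Thy1, lower in the TRIM21 line by 0.29 on the log2 scale (edgeR adjusted p = 0.0207). Col3a1, Col1a1, Col1a2, Pdgfrb and Fn1 were also lower (-0.44, -0.43, -0.25, -0.16 and -0.13) and Vim was higher (0.08), with edgeR adjusted p of 0.145 or more. Among markers of other cells, the 2 epithelial genes together reached 0.118 RPKM at most and the 2 endothelial genes 0.56 RPKM, while both muscle regulators, Myod1 and Myog, were at 0 counts in all 18 libraries. The leukocyte pair came to 3.64 to 6.89 RPKM over all libraries, nearly all of it Cd68, and the defining gene Ptprc had at most 5 counts in a library. A pair of libraries stood apart in the TRIM genes. The TRIM21 line's PBS library numbered 11 was the highest or lowest of its 9 for 22 of the 36 relatives, and the WT line's PBS library numbered 14 for 19, against at most 10 for any other library of either line. Results that rest on the former are given below with and without it. For the latter this is done only for the counts of members after PBS.

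Because interferon drives many TRIM genes, the promoters were searched for an interferon response motif (GAAA, any 2 bases, then GAAA again) on both strands of the RefSeq window from 250 bases before to 50 after each start (GRCm38.p6, the mm10 build). The stretches that hold it are shown because most of them lie on the chromosome of Trim21. Each is 30 bases, 5′ to 3′ on the strand of the gene, with the motif in capitals, which read as its reverse complement (TTTC, any 2 bases, TTTC) where the motif lies on the other strand.
Trim21: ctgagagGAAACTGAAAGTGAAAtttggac
Trim12a: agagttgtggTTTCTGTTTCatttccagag
Trim12c: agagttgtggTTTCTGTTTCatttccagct
Trim30a: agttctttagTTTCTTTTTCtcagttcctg
Trim30d: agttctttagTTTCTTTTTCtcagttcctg
Trim34a: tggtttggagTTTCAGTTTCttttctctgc
Trim26: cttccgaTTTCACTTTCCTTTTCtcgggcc
Trim2: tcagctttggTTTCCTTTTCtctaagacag

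The Trim21 stretch lies at chr7:102565447-102565476 on the minus strand, and its pair of overlapping matches covers bases 14 to 29 counted from the start as 1. Trim26, at chr17:36836979-36837008 in the plus direction, also has 2 overlapping matches. The 30 bases of Trim30a (chr7:104465210-104465239) and Trim30d (chr7:104507871-104507900) are the same sequence. In all, 8 of the 50 members with a window held the motif (16%), against 1079 of 27025 genes (3.99%) and 1131 of 32851 windows (3.44%). The share was 6 of 13 members on chromosome 7 (46.2%) and 2 of 37 on other chromosomes (5.41%). A match describes these letters only.

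Trim21 (chr7:102557921-102565486, minus strand, GRCm38) has 14 family members on its chromosome, itself included. Trim68 is the nearest, 112.1 kb away with 7 other genes between. The cluster from Trim6 to Trim30d, with Trim34a, Trim12a, Trim34b, Trim12c, Trim30b and Trim30a, starts 1653 kb from Trim21 and its last gene lies 1905 kb away. Trim3, Trim66, Trim28 and Trim72 are farther off.

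In the WT line, endogenous Trim21 was a modest member of the family. Its lowest, median and highest CPM over the 9 libraries were 6.54, 8.39 and 9.73, and in the TRIM21 line they were 984, 1030 and 1190. By treatment, the WT libraries 10, 11 and 14 had 6.72, 8.10 and 9.73 CPM after PBS, 8.41, 6.54 and 8.39 after BSA, and 6.64, 8.78 and 8.82 after IgG. The TRIM21 line's had 1070, 1190 and 989 CPM after PBS, 996, 1030 and 1050 after BSA, and 999, 984 and 1030 after IgG. The lines did not overlap in any treatment. Reads of the introduced gene and of the resident gene cannot be told apart in these counts where both have the same exons.

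Averaged over treatments, the line difference of Trim21 was 7.02 ± 0.078 (log2, SE), a 129.4-fold rise with a 95% interval of 116 to 145 (edgeR adjusted p = 2.32e-19, higher in 9 of 9 pairs of libraries with the same treatment and number). Per length, Trim21 went from 2.16 ± 0.304 RPKM (SD, n = 9), the 24th level of the 37 tested members in the WT line, to 279 ± 17.1 RPKM, the first in the TRIM21 line. Its share of all CPM of the family was 0.338% to 0.544% in the WT line and 33.8% to 36.7% in the TRIM21 line. The summed CPM of the relatives was 1778 to 1928 and 1835 to 2050, so these ranges overlapped.

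**Figure D1:**
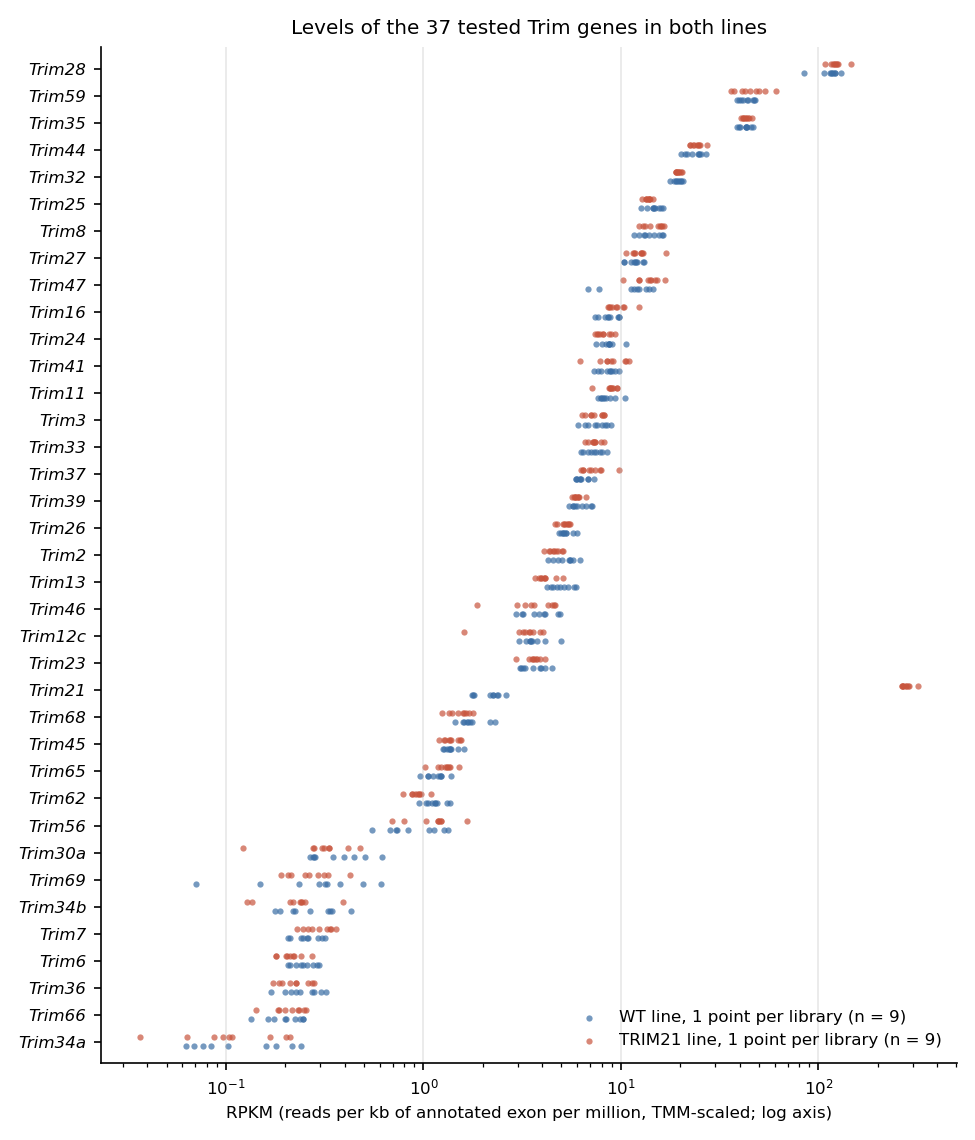
Level of each of the 37 tested Trim genes, in RPKM on a log axis, with 1 point per library (9 in the WT line in blue, 9 in the TRIM21 line in red), ordered by the WT mean. Trim21 moves from 2.16 to 279 RPKM, and the points of both lines overlap for all 36 relatives.

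Trim28, the corepressor that KRAB zinc finger proteins bring to chromatin, was the most abundant relative in both lines. Its mean was 115 ± 12.8 RPKM in the WT line and 123 ± 10.7 in the TRIM21 line (SD, n = 9), and it made up 19.8% to 28.1% and 23.6% to 29.8% of the relatives' summed CPM. In the TRIM21 line its level was thus below that of Trim21, whereas in the WT line it was far above. The other chromatin members, which are nuclear cofactors with a PHD finger and a bromodomain, were lower in the WT line: Trim24 had 8.71 ± 0.855 RPKM, Trim33, which takes part in TGF-beta signalling, 7.3 ± 0.733, and Trim66 0.203 ± 0.0395.

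After Trim28, the WT levels in RPKM were 43.3 ± 3.42 for Trim59, a membrane-anchored member, and 42.5 ± 2.65 for Trim35. Trim44, which has a B-box but no RING, followed with 23.6 ± 2.27, and Trim32, an NHL-domain ligase mutated in a limb-girdle muscular dystrophy, with 19.3 ± 0.905. Below these came Trim25 (14.8 ± 1.17), which ubiquitinates the RNA sensor RIG-I, Trim8 (14.1 ± 1.69), Trim27 (11.7 ± 0.955) and Trim47 (11.5 ± 2.65). Of the 36 pairs of neighbours in the WT order, 6 differed by more than their SDs and 30 did not, and Trim21 differed so from Trim23 just above it (3.63 ± 0.494) but not from Trim68 just below (1.77 ± 0.282).

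The interferon-inducible or antiviral members spanned a wide range. In the WT line Trim25 was at 14.8, Trim26 at 5.27 ± 0.358 and Trim12c, a rodent relative of the retrovirus restriction factor TRIM5, at 3.69 ± 0.573 RPKM. Trim56, linked to the DNA sensing adaptor STING, had 0.924 ± 0.282 RPKM, Trim30a, a feedback inhibitor of NF-kB signalling, 0.379 ± 0.123, Trim34b 0.279 ± 0.0852 and Trim34a 0.132 ± 0.0679, the lowest level of all tested members. Trim34a and Trim34b share sequence: 61.9% of the 50-base words of the longest Trim34a transcript and 59% of those of Trim34b occur in another gene. For Trim12c the share was 33.4%, mostly with Trim5, so the counts of these 3 genes are uncertain. Trim21 shared 0.292% of its words.

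The 28 untested members had few counted reads or none. In 13 of them no read was counted in any of the 18 libraries: Trim9, Trim12a, Trim15, Trim30b, Trim42, Trim50, Trim52, Trim54, Trim55, Trim58, Trim60, Trim61 and Trim75. The other 15 had 2 to 82 counts over all libraries together and at most 10 in any of them, the highest total being that of Trim30d. Some share much sequence with other genes, so their low counts are uncertain too. The share of 50-base words was 57.8% for Trim14 and 48.1%, 48.8% and 59.3% for Trim43a, Trim43b and Trim43c. None of the 4 striated muscle members, Trim54, Trim55 and Trim63 (the MURF ligases of the sarcomere) and Trim72 (a membrane repair protein), was tested, and of 9 germ cell or early embryo members 1 was, Trim69, at 0.319 ± 0.165 RPKM in the WT line. By contrast, 4 of 4 chromatin members, 7 of 7 innate signalling regulators, 4 of 6 neuronal or cytoskeletal members and 8 of 13 interferon-inducible or antiviral members passed the filter. By C-terminal domain, 20 of 36 PRY-SPRY members, 2 of 8 with a COS box, 3 of 4 with NHL repeats and 4 of 4 with a PHD finger and bromodomain were tested.

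No relative passed the test between the lines in the main fit of 6 group means, which had no block for library number. With that block Trim62 and Trim13 were called (edgeR adjusted p = 0.0175 and 0.0375), beside 12% of all genes. With the block and a correction for GC content together 7 members were called, Trim21 included, beside 19.5%. In the main fit, averaged over treatments, Trim21 was called and 0 of 36 relatives were (edgeR, adjusted p under 0.05). Of all 12140 genes tested 6.18% were called, 1.39% higher and 4.79% lower in the TRIM21 line. Of the relatives, 18 had a positive and 18 a negative difference, from -0.30 for Trim62 to 0.31 for Trim56, with a median of 0.00169 beside 0.0142 over all genes. Unadjusted p-values under 0.05 were found for 7 of the 36, a share that stands beside 21.4% of all genes. In 0 of 36 relatives were the 9 libraries of 1 line all above or all below those of the other, which was so in 232 of 12140 genes (1.91%). A difference in level in bulk RNA does not separate fewer cells that express a gene from less RNA per cell.

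All 36 of the 95% intervals of the line difference lay within 2-fold either way, and 31 within 1.5-fold. The highest upper bound was 0.65 on the log2 scale (1.57-fold), for Trim56, and the lowest lower bound -0.87 (1.83-fold), for Trim34a, one of the least abundant. Trim21 rose 129.4-fold, so even the highest of these bounds lay far below it. The level of 95% holds for each gene, not for the 36 together.

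**Figure D2:**
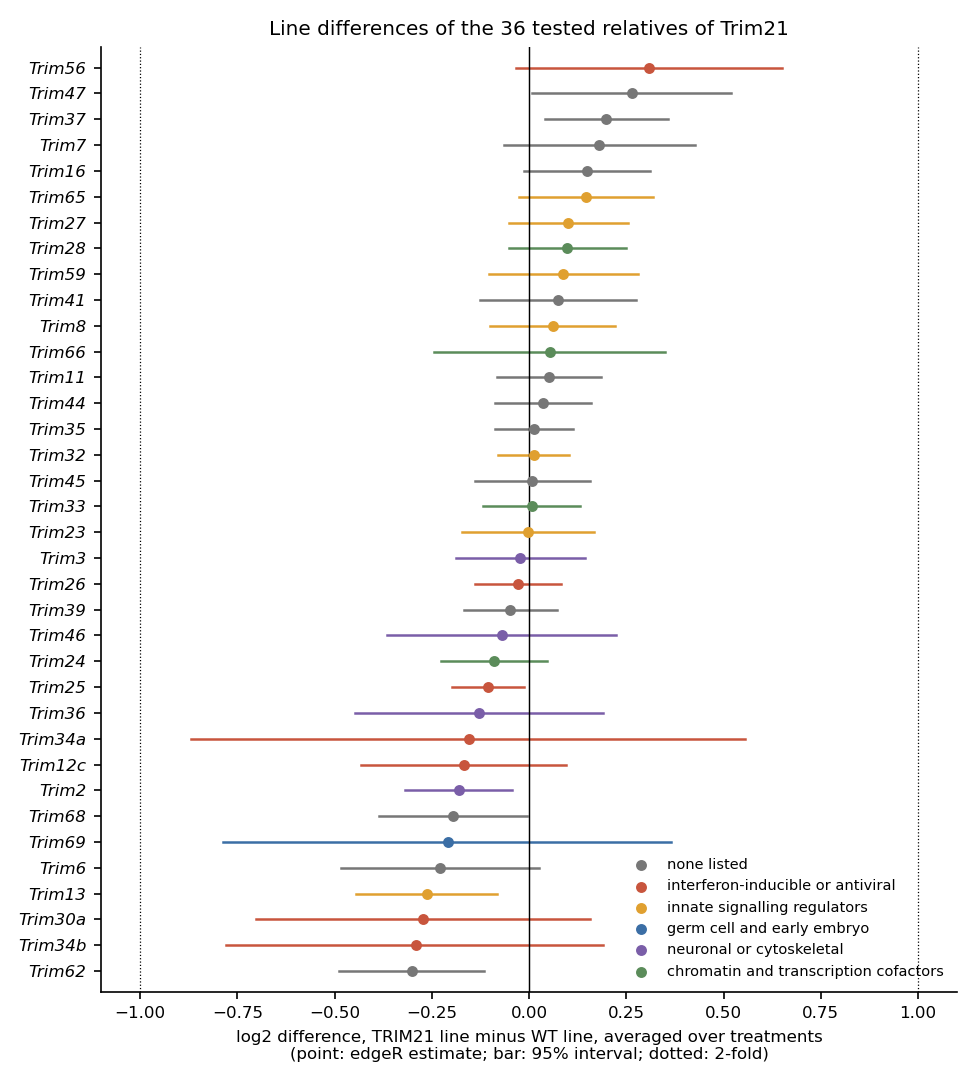
Line difference (TRIM21 line minus WT line, averaged over treatments, log2) of the 36 tested relatives of Trim21, with the edgeR estimate as a point and its 95% interval as a bar, coloured by role group. The estimates run from -0.30 (Trim62) to 0.31 (Trim56) and all bars stay inside the dotted lines at 2-fold; Trim21, at 7.02, is off the axis and not drawn.

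Trim62, a PRY-SPRY ligase with a tumour suppressor role in breast epithelium (chr4:128883580-128911328, plus strand), came nearest to the threshold. Its lowest, median and highest CPM were 4.76, 5.75 and 6.81 in the WT line and 3.97, 4.65 and 5.47 in the TRIM21 line. The ranges overlapped, though the TRIM21-line library was the lower in 9 of 9 pairs with the same treatment and number. How many of all genes reach 9 of 9 was not counted. The difference was -0.30 ± 0.0885 (log2, SE), with an unadjusted p of 0.00314 and an edgeR adjusted p of 0.0506. Its side of the threshold depends on the tool and the libraries: DESeq2 gave an adjusted p of 0.0414, and edgeR gave 0.0219 without the TRIM21 line's PBS library 14, 0.0225 without the WT line's PBS library 10 and 0.0448 with a correction for GC content. With the library number as a block edgeR gave 0.0175, beside 12% of all genes called. Over every alternative that was run the adjusted p of Trim62 was 0.0133 to 0.105. The count tables also list an older symbol of Trim62 as a row of its own, at 0 in every library.

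Trim13, a ligase of the endoplasmic reticulum membrane, and Trim2, an NHL ligase that acts on neurofilament light chain, are named after their values were seen. Trim13 had 7, 8.11 and 9.82 CPM (lowest, median and highest) in the WT line and 6.08, 6.7 and 8.41 in the TRIM21 line, a difference of -0.26 ± 0.086 (edgeR adjusted p = 0.0808). Trim2 had 84, 108 and 123 CPM against 80.5, 90.8 and 100, a difference of -0.18 ± 0.0649 (edgeR adjusted p = 0.111). Both had overlapping lines. Without the TRIM21 line's BSA library 11 the adjusted p of Trim13 was 0.0408, and without the WT line's PBS library 11 that of Trim2 was 0.0488. With the library number as a block the edgeR adjusted p of Trim13 was 0.0375.

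On the positive side, Trim56 had 5.07, 7.79 and 12.4 CPM in the WT line and 6.4, 11 and 15.5 in the TRIM21 line, a difference of 0.31 ± 0.163 (edgeR adjusted p = 0.284). Trim47 had 18.5, 33.2 and 39.6 CPM against 27.8, 38.6 and 45.7, a difference of 0.26 ± 0.122 (adjusted p = 0.22). Its exons share 225 bases with Trim65 on the same strand. Trim37, a MATH-domain ligase that controls centrosome formation and is mutated in mulibrey nanism, had 42.5, 45 and 52.9 CPM against 45.4, 51.1 and 70.4, a difference of 0.20 ± 0.0756 (adjusted p = 0.136). The top value of Trim37 belongs to the TRIM21 line's PBS library 11, without which the difference was 0.13. The adjusted p of Trim37 was 0.0264 without that line's PBS library 14, and with the GC correction those of Trim37, Trim47 and Trim13 were 0.0476, 0.0379 and 0.0386. Trim16, also named after its values were seen, was higher in the TRIM21 line in 9 of 9 pairs with the same treatment and number. As for Trim62, how many of all genes reach 9 of 9 was not counted. The ranges of Trim16 overlapped. Its lowest, median and highest CPM were 33.9, 39.2 and 44.7 in the WT line and 39.3, 43.3 and 56.3 in the TRIM21 line. Trim16 was called only with the library number as a block together with the GC correction (0.15, edgeR adjusted p = 0.0212), beside 19.5% of all genes.

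By role, the 7 tested interferon-inducible or antiviral relatives had 1 positive and 6 negative line differences with a median of -0.15, and 0 were called (smallest adjusted p 0.174, for Trim25). Without the TRIM21 line's PBS library 11 the median was -0.10. Trim30a had 1.09, 1.44 and 2.54 CPM in the WT line and 0.5, 1.29 and 1.96 in the TRIM21 line, and its difference was -0.27 ± 0.204, or -0.18 without that library. Trim34b, at -0.29 ± 0.231, had the widest spread among the 3 most negative members. The 5 tested relatives with the motif in a promoter window, Trim12c, Trim30a, Trim34a, Trim26 and Trim2, all had negative differences, from -0.27 to -0.03, and 0 were called.

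None of the other role groups had a called member in the main fit. The 7 innate signalling regulators had 5 positive and 2 negative differences (median 0.06). The 4 chromatin members had 3 positive and 1 negative (median 0.03), and the 4 neuronal or cytoskeletal members 0 positive and 4 negative (median -0.10). Without the TRIM21 line's PBS library 11 the neuronal or cytoskeletal members had 1 positive and 3 negative (median -0.05). The innate regulators then had 6 and 1 (median 0.02) and the chromatin members 3 and 1 (median 0.01). Trim69, the tested germ cell member, differed by -0.21 ± 0.274. The 19 tested PRY-SPRY relatives, which share the target-binding domain of TRIM21, had 8 positive and 11 negative differences (median -0.05) and 0 calls. Trim28 differed by 0.10 ± 0.0712, or 0.05 without the TRIM21 line's PBS library 11, and Trim32, the relative with the narrowest interval, by 0.01 ± 0.0436.

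Within single treatments no relative was called in the main fit either. After PBS, BSA and IgG the line difference of Trim21 was 7.05, 7.04 and 6.96, with 0 of 36 relatives called each time, while 1.71%, 0.848% and 0.774% of all genes were called. Relatives with an unadjusted p under 0.05 numbered 7 after PBS, 1 after BSA and 3 after IgG, beside 19.8%, 10.3% and 7.79% of all genes. Without the TRIM21 line's PBS library 14, Trim37 was called after PBS (0.48, edgeR adjusted p = 0.0311), beside 8.33% of all genes. With the block for library number and the GC correction together, Trim47, Trim37, Trim13, Trim2 and Trim68 were called after PBS. Their edgeR adjusted p was 0.0167, 0.0235, 0.0256, 0.0285 and 0.0314, beside 16.4% of all genes called. Trim68 is the nearest family neighbour of Trim21 on the chromosome and a cofactor of the androgen receptor. In the main fit it had the smallest p of the relatives after PBS. Its WT libraries had 5.83, 7.58 and 8.00 CPM and its TRIM21 libraries 5.61, 4.30 and 5.22. The difference was -0.50 ± 0.156 (edgeR adjusted p = 0.117). Without the WT line's PBS library 14, 4 members rather than 8, Trim21 included, had an unadjusted p under 0.05 after PBS. Trim21 was then the only member called, beside 0.851% of all genes. Without the TRIM21 line's PBS library 11, 2 relatives rather than 7 had an unadjusted p under 0.05 after PBS. The share of all genes with such a p was not counted in that fit. The smaller p of the 2 was that of Trim13 (-0.46, edgeR adjusted p = 0.381), and Trim68 differed by -0.41 (adjusted p = 0.506). After BSA and IgG Trim68 differed by -0.06 and -0.03. After BSA Trim56 had 6.80, 5.07 and 7.79 CPM in the WT line and 10.9, 11.1 and 11.3 in the TRIM21 line. It differed there by 0.76 ± 0.283 (edgeR adjusted p = 0.348).

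**Figure D3:**
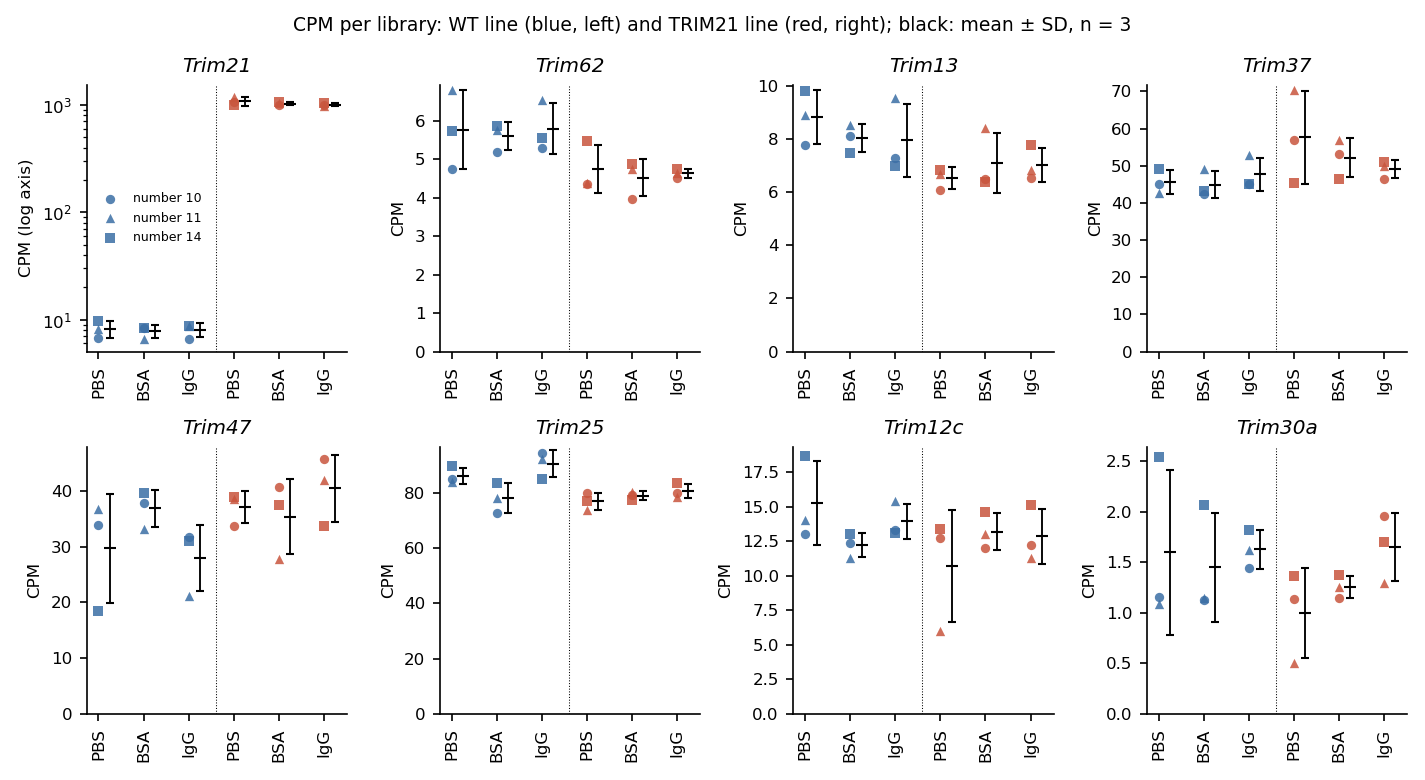
CPM per library of Trim21 (log axis) and of 7 relatives (axes from 0), with WT groups in blue on the left and TRIM21 groups in red on the right of each panel, symbols for library numbers 10, 11 and 14, and the mean ± SD of 3 libraries in black. Only Trim21 separates the lines; Trim62 is lower and Trim37 higher in most TRIM21-line libraries, and the PBS library numbered 11 is the lowest of that line in Trim12c (6 CPM) and Trim30a (0.5 CPM).

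The treatments asked whether delivering an antibody that TRIM21 can bind, or a protein that it cannot, changed any member. None of the 37 was called by edgeR in any of the 3 treatment comparisons of either line, where 0% of all genes were called. Members with an unadjusted p under 0.05 numbered 0 in all 3 comparisons of the TRIM21 line, beside 5.61% of all genes for IgG over PBS, 0.371% for IgG over BSA and 3.68% for BSA over PBS. Without that line's PBS library 14 they numbered 6 for IgG over PBS and 6 for BSA over PBS, with 0 called. The share of all genes with such a p was not counted in that fit. In the WT line, with all libraries kept, such members numbered 1, 1 and 0 in the same order, beside 2.68%, 5.87% and 2.49% of all genes. The 3 comparisons of a line share their libraries, so they are not independent of each other. Trim21 itself differed by -0.11 between IgG and PBS in the TRIM21 line, with a 95% interval of -0.37 to 0.16, and by -0.02 in the WT line, with an interval of -0.32 to 0.29.

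The members with the smallest unadjusted p in each treatment comparison all had an edgeR adjusted p of 0.724 or more. In the TRIM21 line, Trim46, which bundles microtubules in the axon, had 11.3, 7.05 and 16.2 CPM after PBS and 17, 17.4 and 13.8 after IgG, overlapping groups with a difference of 0.47 (adjusted p = 0.724), or 0.24 without the PBS library 11. Trim34a differed by 0.87 between IgG and BSA (adjusted p = 1), with 95% bounds of -0.34 and 2.11. Trim34b differed by 0.68 between BSA and PBS (adjusted p = 0.841).
In the WT line, Trim68 differed by -0.36 between IgG and PBS (adjusted p = 1) and by -0.30 between BSA and PBS (adjusted p = 0.982). Trim25 had 94.4, 92.3 and 85 CPM after IgG and 72.8, 78.1 and 83.7 after BSA in that line. The difference of 0.21 had an adjusted p of 0.741.

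The 7 interferon-inducible or antiviral relatives were followed through the same comparisons, and 0 were called in any. In the TRIM21 line, 7 of 7 had a positive difference between IgG and PBS, from 0.07 to 0.69 (Trim30a) with a median of 0.31 (smallest adjusted p 0.724), beside a median of 0.00801 over all genes. There, 6 of 7 were positive between BSA and PBS with a median of 0.28, and 5 of 7 between IgG and BSA with a median of 0.02. In the WT line 4 of 7 were positive between IgG and PBS (median 0.04), 1 of 7 between BSA and PBS (median -0.14) and 6 of 7 between IgG and BSA (median 0.19). The TRIM21 line's PBS library 11 enters both PBS values of that line. Without it 6 of 7 were positive between IgG and PBS with a median of 0.13, beside 0.0204 over all genes, and 6 of 7 between BSA and PBS with a median of 0.03. In that library Trim30a, Trim12c and Trim46 had 0.5, 6 and 7.05 CPM, against 1.14 and 1.36, 12.7 and 13.4, and 11.3 and 16.2 in the other PBS libraries of the line.

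**Figure D4:**
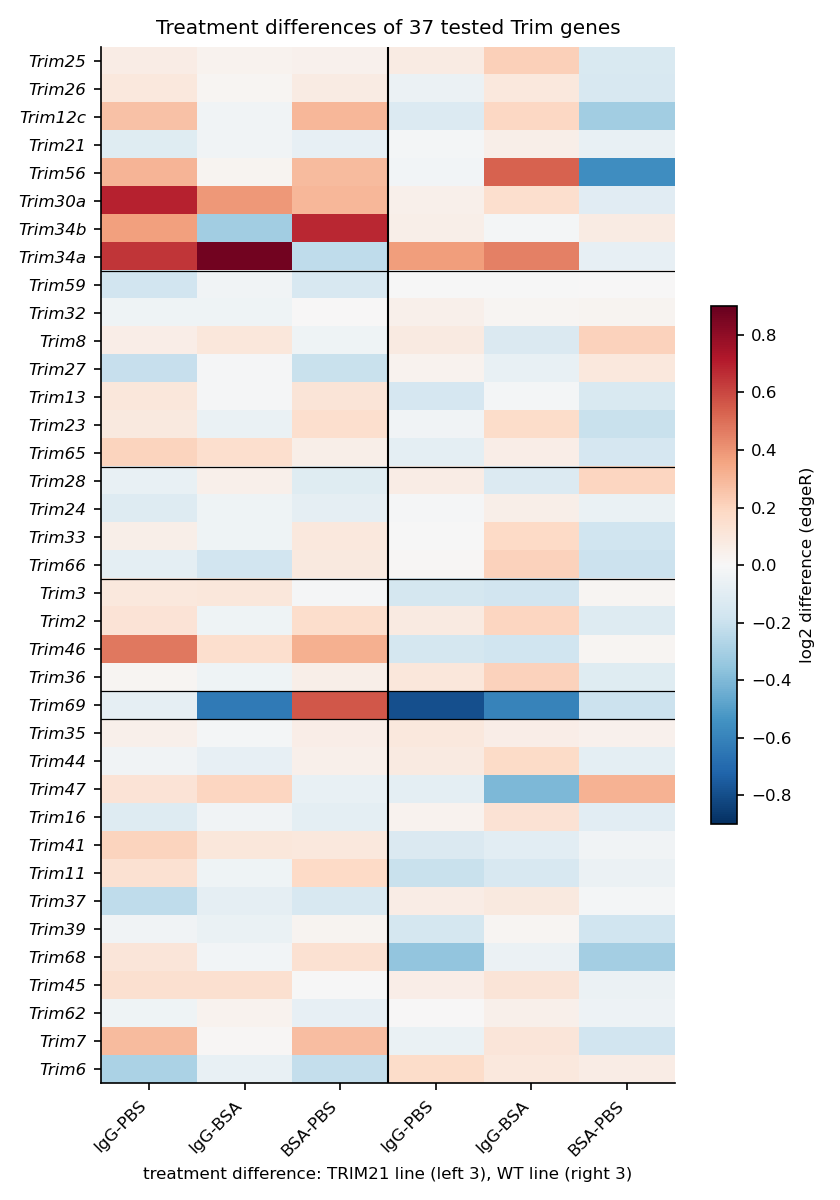
Treatment differences (log2, edgeR) of the 37 tested Trim genes in the TRIM21 line (left 3 columns) and the WT line (right 3 columns), with genes grouped from top to bottom as interferon-inducible or antiviral, innate signalling, chromatin, neuronal or cytoskeletal, germ cell, and no listed role. The strongest colours are in members of low level such as Trim34a (0.87, IgG against BSA in the TRIM21 line), and 0 of these differences passed the test.

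Whether a treatment acted differently in the 2 lines was tested by the interaction. None of the 37 members was called by edgeR, and 0% of all genes were. For IgG against PBS, 2 members had an unadjusted p under 0.05, Trim11 (0.34) and Trim68 (0.47), beside 1.82% of all genes. For IgG against BSA 0 members did, beside 3.97%, and for BSA against PBS 1 did, Trim56 (0.84, adjusted p = 0.651), beside 6.51%. Without the TRIM21 line's PBS library 11 there were 0 in all 3 interactions (the share of all genes was not counted in that fit). Trim11, Trim68 and Trim56 then had 0.26, 0.39 and 0.65. Intervals were wide here: 28, 27 and 26 of the 36 relatives had one within 2-fold in these 3 interactions.

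Likeness to Trim21 was also measured within each line, as Pearson's r of log2(CPM + 0.5) over 9 libraries. Trim21 had 984 to 1190 CPM in the TRIM21 line and 6.54 to 9.73 in the WT line. Introduced and resident Trim21 are counted together, so the 2 values of r need not describe the same transcript. Of 72 relations (36 relatives in 2 lines), 10 had an unadjusted exact permutation p under 0.05 and 0 an adjusted one, the smallest adjusted p being 0.255 for r and 0.388 for Spearman's rho. The libraries share treatments and depth, so r describes them only. In both lines r was positive for 6 relatives and negative for 7.

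Trim24 had the highest mean r over both lines. It was 0.593 in the WT line (rho 0.517, exact permutation p = 0.0794 and 0.162) and 0.806 in the TRIM21 line (rho 0.817, exact p = 0.00476 and 0.0108), with adjusted p-values of 0.283 and 0.255 for r. Without the 2 libraries farthest from the Trim21 median r was 0.888 and 0.581. In the WT line those 2 did not include PBS library 14, the highest in Trim21 (9.73 CPM) and in Trim24 (90.6 CPM). Leaving out 1 library at a time gave an r of 0.330 to 0.696 in the WT line and 0.672 to 0.907 in the TRIM21 line. Trim37 followed with 0.12 and 0.815 and Trim69 with 0.676 and 0.224. The lowest means were those of Trim46 (0.0405 and -0.845), Trim11 (0.08 and -0.819) and Trim3 (-0.138 and -0.585).
Several of the TRIM21-line values rest on its PBS library 11, the highest in Trim21 with 1190 CPM. Without it r was 0.672 for Trim24, 0.415 for Trim37, -0.44 for Trim46 and -0.0958 for Trim11.

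**Figure D5:**
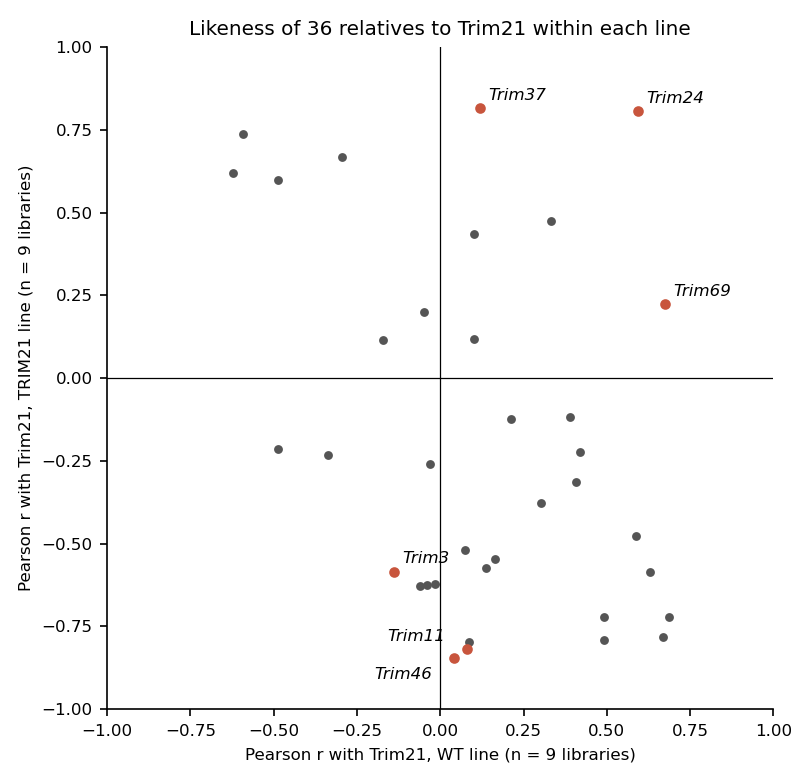
Pearson's r with Trim21 over the 9 libraries of the WT line (horizontal axis) and of the TRIM21 line (vertical axis), 1 point for each of the 36 tested relatives, with the 3 highest and 3 lowest means in red and named. Trim24 (0.593 and 0.806) lies farthest to the upper right, and no relation had an adjusted p under 0.05.

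Of 8 genes for TRIM proteins with other symbols, 4 were tested and 0 called between the lines: Pml, which builds nuclear bodies (0.10), the midline genes Mid1 (-0.19) and Mid2 (0.24, edgeR adjusted p = 0.0669), and Rnf207 (-0.48, adjusted p = 0.182). Mefv, Triml1 and Triml2 had 0 counts in all libraries and Cmya5 at most 2. Of 18 genes on the route from TRIM21 to the proteasome or of TRIM signalling partners, all 18 were tested, 6 had a positive and 12 a negative difference with a median of -0.04, and 0 were called. The smallest adjusted p among them was 0.0526, for Stat2, a transcription factor of the interferon response, with 41.8 ± 5.66 CPM in the WT line and 30.7 ± 7.77 in the TRIM21 line (SD, n = 9). Without the TRIM21 line's PBS library 11, 1 of the 18 was called, Stat2 (-0.37, log2, TRIM21 line minus WT line, edgeR adjusted p = 0.0314), beside 5.6% of all genes; 5 had a positive and 13 a negative difference, with a median of -0.05. Ube2w and Ube2n, the conjugating enzymes that work with TRIM21, differed by -0.11 and -0.06, and Vcp, the unfoldase, by 0.09.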

How the data were processed

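Counts per gene symbol were deposited for each of 18 libraries; the tables end in htseq-count summary rows. Per the submitters' processing notes the tools were bcl2fastq 2.19.1.403, FastQC 0.11.5, STAR 2.5.1b, HTSeq 0.6.0 and DESeq2 1.6.3, with the build mm10; annotation and strand setting are not given in the sources used here, and per the labels the libraries were strand-specific and polyA-enriched. Rows that name no gene were left out: 13.11% to 18.79% of uniquely aligned reads fell in no feature, and 36.41% to 40.57% of all were aligned to several places, which lowers the counts of genes with near copies. No libraries of a group were duplicates (chi-square per degree of freedom 10.6 to 82 over 18 pairs).

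Groups came from the labels. Counts were tested with edgeR 4.0.16 in R 4.3.3 (filterByExpr with a minimum count of 10 and total of 15, TMM, quasi-likelihood fit of 6 group means, no replicate block), in 13 comparisons, with Benjamini-Hochberg adjustment over all 12140 genes and a threshold of 0.05. Intervals use the quasi-likelihood variance at 95% for each gene and cover no multiple testing. The tests were checked on simulated data. Exon lengths and positions came from GENCODE vM21, in which 22750 symbols matched directly, 935 by an older symbol and 377 not; promoter windows came from RefSeq. Within-line correlations used all 362880 orders of the 9 libraries in a two-sided exact test, adjusted over 72 relations. Alternatives were DESeq2 size factors, other filters, the replicate block, a GC offset, both together, DESeq2 1.42.0, limma 3.58.1 (voom), only the groups compared, leaving out each library, and another length.

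Named members are Trim21, any called member, the 10 highest by RPKM, the 3 largest line differences each way, the 3 highest and lowest mean r with Trim21, the smallest p of each treatment comparison and the members on chromosome 7. The members, lists and tests were chosen with earlier results of these data known.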

Additional observations from a re-analysis of the deposited data

How the results depend on the processing

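Trim21 was called between the lines, on average and after each treatment, under every alternative that was run. The number of members called between the lines, 1 as reported, was 3 with the replicate block (adding Trim13 and Trim62, with adjusted p of 0.0375 and 0.0175), 5 with the GC offset, 7 with the replicate block and GC offset together, and 2 with DESeq2's Wald test. These stood beside 12%, 9.54%, 19.5% and 8.57% of all genes called. After PBS it was 6 with the replicate block and GC offset together, beside 16.4%; the cause was not tested. Leaving out 1 library at a time gave 1 to 3 members averaged over treatments and 1 to 2 after PBS, and 1 after BSA and after IgG. The highest counts came without the TRIM21 line's PBS library 14, beside 10.4% of all genes averaged over treatments and 8.33% after PBS. There were 2 averaged over treatments without the TRIM21 line's BSA library 11 and the WT line's PBS libraries 10 and 11, beside 5.3%, 6.46% and 6%. Treatment and interaction comparisons kept 0 called members in all alternatives. Numbers shared by libraries paired them only in part: 32 of 45 same-number pairs correlated above 0.1 (mean 0.218, lowest -0.323, different numbers -0.109), and 16 of 18 libraries correlated best with their own number. Signs that turned when 1 library was left out belonged to line differences near 0, apart from that of Trim34a. The ranges were -0.00954 to 0.0373 for Trim35, -0.0090 to 0.0243 for Trim32, -0.0634 to 0.0118 for Trim3, -0.188 to 0.00561 for Trim46, -0.375 to 0.128 for Trim34a and -0.0275 to 0.131 for Trim66. Signs also turned for r with Trim21 in the WT line, with ranges of -0.0931 to 0.35 for Trim37, -0.342 to 0.0896 for Trim3, -0.0527 to 0.214 for Trim11 and -0.179 to 0.301 for Trim46. By the longest transcript in place of all exons, Trim24 replaced Trim25 among the 10 highest. Depth limits the least abundant members: 3 counts are up to 0.1523 CPM, and Trim34a was as low as 0.0951 CPM in a library.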
